A study of Mus musculus with 6 samples.

Results

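The genes that encode the proteins of the cytosolic ribosome were described in bone marrow (BM) RNA of mice that model T-ALL, an acute lymphoblastic leukemia of T cells. They were taken as the protein-coding genes of the deposited table whose name starts with Rpl or Rps and a digit, with Rplp0, Rplp1, Rplp2 and Rpsa, leaving out the S6 kinase genes (names starting Rps6k) and names that mark a pseudogene. The rule uses names alone and gave 86 of the 54532 genes of the table, of which 22046 are protein coding. Of the 86, 77 are the usual subunits of the mammalian ribosome and are called core members here, 31 of the small (40S) and 46 of the large (60S) subunit. The other 9 are paralogues or carry a similar name: Rpl3l, Rpl7l1, Rpl10l, Rpl22l1, Rpl36al, Rpl39l, Rps27l, Rps27rt and Rps19bp1. Rps19bp1 encodes a binding partner of Rps19 and is taken in by its name only.

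The study compared Phf6 wild type (WT) with Phf6 knockout (KO) cells that all carry JAK3 M511I, an activating form of a Janus kinase. Lin- BM cells of male Phf6 fl/y (WT) or Vav1-Cre;Phf6 fl/y (KO) mice were infected with a retrovirus that carries JAK3 M511I and GFP and were transplanted into irradiated male recipients, whose own blood cells may persist. BM of C57BL/6 mice was taken 100 days after transplantation, and there are 3 libraries per group, numbered 1 to 3 within each (WT 1, KO 1 and so on). Vav1-Cre acts throughout the blood-forming system, so deletion is not limited to T cells. The labels do not say whether GFP+ cells were sorted before RNA extraction or that each library is a separate mouse, so p-values measure only the spread between these libraries, which may be technical.

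Ribosomal proteins coat and shape the ribosomal RNAs, and most are needed in the same number of copies. Their mRNAs are short and very abundant, and most start with a run of pyrimidines, the 5'TOP motif, through which mTOR and Larp1 adjust their translation to growth conditions. Ribosomal proteins that are not built into ribosomes, Rpl5 and Rpl11 above all, can bind Mdm2 and so protect p53. In T cells, Rpl22 and its paralogue Rpl22l1 act in development, and RPL5, RPL10, RPL11 and RPL22 are mutated or deleted in some human T-ALL.

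The 5'TOP motif lies at the start of transcription. RefSeq promoter windows (GRCm38.p6), from 250 bases before to 50 bases after each annotated start, were matched by symbol to 66 of the 86 members. The 30 bases centred on the start are given here for 6 members whose level against the other ribosomal protein genes differed between WT and KO, with or without the library WT 2 that is described further on, with transcription starting at base 16. Capitals mark the longest pyrimidine run that reaches the 5 bases on either side of the start. Rps27l, Rps21 and Rps24 have 2 annotated starts each, and the one with the longer run is shown. At the other start their longest run is 4, 4 and 2 bases. All 6 have a run of at least 7 bases at the start shown and do not stand for every member that differed. Others that differed on this scale have no run of 5 bases there. Among them are Rpl3l and Rpl13 (longest run 4), Rpl5 and Rpsa (3), and Rpl23 and Rps3 (2).
Rps27 (chr3:90213634-90213663, minus strand): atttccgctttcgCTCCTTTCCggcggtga
Rps27l (chr9:66946071-66946100, plus strand): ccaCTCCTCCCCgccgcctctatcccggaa
Rplp2 (chr7:141447636-141447665, plus strand): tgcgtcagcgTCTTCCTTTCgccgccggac
Rps21 (chr2:180257364-180257393, plus strand): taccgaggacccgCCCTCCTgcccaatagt
Rps24 (chr14:24490663-24490692, plus strand): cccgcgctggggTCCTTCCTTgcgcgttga
Rps26 (chr10:128626492-128626521, minus strand): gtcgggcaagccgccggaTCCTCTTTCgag
The run covers the annotated start in Rps27, Rplp2, Rps21 and Rps24 and begins at base 4 of the transcript in Rps26. In Rps27l the capitals end before the start, and a shorter run that is not in capitals begins at base 2 of the transcript.

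Over the 67 windows of 57 core members, a run of at least 8 pyrimidines that reaches the 5 bases on either side of the start was present in 22 (32.8%), against 9.38% of all 32851 windows. At least 5 pyrimidines were present in 34 (50.7%), against 31.4% of all windows. CCGGAAG, the core bound by ETS factors such as Gabpa, was found on either strand in 25 of the 67 core windows (37.3%) and in 8.86% of all windows. AAGATGGC, the YY1 motif, was found in 7 (10.4%) and 2.75%, the E-box CACGTG that Myc binds in 8 (11.9%) and 7.15%, and TATAAA in 6 (8.96%) and 13.6%. None of these 4 motifs contains another. A match is a run of letters and not a measured binding site.

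One library stood apart. The recovered number of reads (fragments counted per gene) lay between 13015823 and 18235095 per library, with WT 2 the deepest. Outside the ribosomal protein genes, WT 2 held 17.7% of its reads in genes under 1000 bases, against 2.53% to 4.50% in the other 5 libraries. The FPKM of WT 2 also carry a smaller divisor, since the library size the authors divided by was 0.645 of its reads, against 1.01 to 1.21 in the others. Results are therefore given with and without WT 2. The Phf6 gene itself had an FPKM of 7.47, 3.67 and 8.02 in WT 1 to WT 3 and of 6.73, 5.50 and 5.11 in KO 1 to KO 3. These values overlap, and a value for the whole gene also counts exons outside the deleted stretch, so it is no check of the genotype.

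Markers of other blood cells moved with the groups and with WT 2. The summed FPKM of 7 neutrophil markers was 6332 to 89144 in the WT libraries and 89.2 to 267 in the KO libraries. For 5 erythroid markers it was 126 in WT 1, 61790.0 in WT 2, 496 in WT 3 and 9.10 to 111 in the KO libraries, and for 4 B cell markers 10.6, 926, 16.6 and 0.906 to 1.10. For 4 monocyte and macrophage markers it was 298 to 4602 in WT and 6.16 to 20.6 in KO libraries, and for 3 megakaryocyte markers 4.38 to 55.3 and 0.194 to 0.321. For 7 T cell markers it was 995, 3142 and 1186 in WT and 1072 to 1487 in KO libraries, so T cell RNA was present in every library, although 1 of the 7 was at 0 in KO 2. No neutrophil or monocyte marker was at 0 in any library, 1 of 4 B cell and 1 of 5 erythroid markers were at 0 in KO 3, and 1 or 2 of 3 megakaryocyte markers were at 0 in each KO library. The part of these cells in the differences below was not tested, and in bulk RNA fewer cells of a type cannot be told apart from less RNA per cell.

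Ribosomal protein mRNAs were among the most abundant in every library. They took 6.15% of all reads in WT 1, 24.9% in WT 2 and 7.90% in WT 3, and 5.77%, 6.78% and 6.22% in KO 1 to KO 3. The share was similar in 5 libraries and far higher in WT 2, and the groups overlapped. The mean was 12.99% ± 10.4 (SD, n = 3) in WT and 6.26% ± 0.509 (SD, n = 3) in KO libraries, a difference that an exact permutation test did not separate (two-sided, p = 0.3, where 3 against 3 libraries cannot go below 0.1). Among WT 1 and WT 3 alone the mean was 7.02%.

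**Figure D1:**
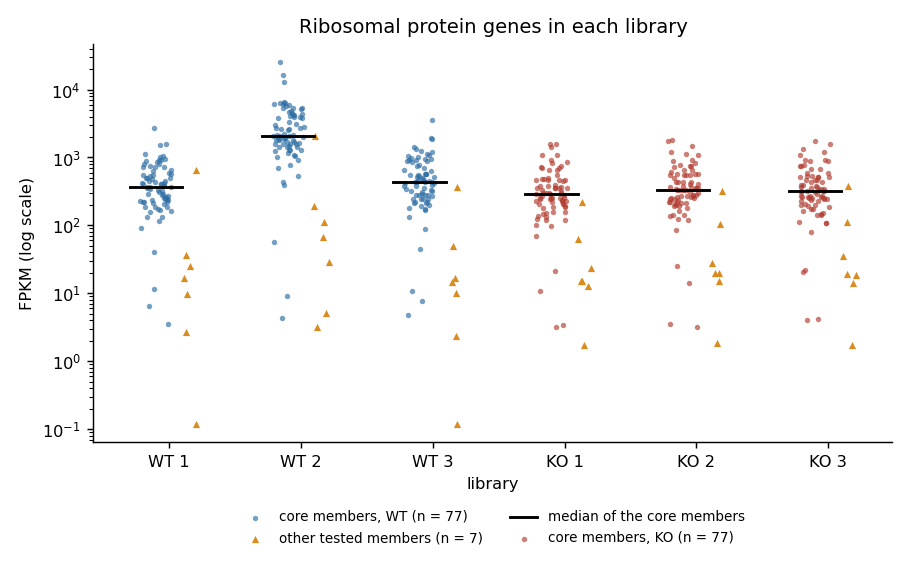
FPKM of the ribosomal protein genes (log axis) in each of the 6 libraries, with 1 point per gene, core members in blue (WT) or red (KO), the 7 other tested members as orange triangles, and a bar at the median of the 77 core members. The median was 2062 in WT 2 and between 290.3 and 435 in the other 5 libraries.

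The median FPKM of the 77 core members was 368, 2062 and 435 in WT 1 to WT 3 and 290.3, 336 and 321 in KO 1 to KO 3. Levels are per base of the gene length that the table lists, which for many members is longer than the mRNA, so an order of genes is an order of the listed FPKM only. The 3 highest members by mean FPKM over the 6 libraries were Rplp1, an acidic protein of the P stalk that recruits elongation factors, Rpl36 of the large subunit and Rps15 of the small subunit. Rplp1 had 2723, 25373 and 3583 in WT 1 to WT 3 and 1555, 1751 and 1734 in KO 1 to KO 3. Every KO library lay below every WT library for Rplp1, and WT 2 stood far above all others. WT 2 also carries the places of Rpl36 and Rps15, since in each of the other 5 libraries the 3 highest were Rplp1, Rplp0 and Rps3a1, a small subunit protein.

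The listed levels of the core members in WT 1 ran from 3.48 (Rps10) to 2723 (Rplp1). The low end was made up of few genes. Rps10 had an FPKM of 3.48, 4.34 and 4.72 in WT and 3.23, 3.24 and 4.14 in KO libraries, and Rpl24 had 6.42, 9.08 and 7.83 in WT and 3.39, 3.51 and 3.98 in KO libraries. Rpl13a had 11.7, 56.5 and 10.7 in WT and 10.9, 14.4 and 20.4 in KO libraries. All 3 share exon bases on the same strand with another annotated gene that the table lists at 0 in all 6 libraries: 47.0% of the exon bases of Rpl24 with Gm28037, 20.6% of those of Rps10 with RPS10-NUDT3, and 35.4% of those of Rpl13a with Gm45713 and small RNAs. The paralogue Rpl36al, at 1.71 to 3.14, shares 24.5% with Gm49383, which is also listed at 0. Counting tools often leave out reads that fall on several genes, and the setting used is not given in the sources used here, so the levels of these 4 genes are uncertain. The part of such overlap in their low levels was not tested. Rpl35 and Rpl23a share 66.2% and 62.3% of their exon bases, almost wholly with genes on the opposite strand. They were not low, at 247 to 2192 and 489 to 2682 FPKM.

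The length of a gene in the table went with its level. The gene_length column, which for all but 4 of the members equals the summed exons of all transcripts in GENCODE M21, ran from 383 bases (Rpl36) to 6270 bases (Rps15a) over the core members, with a median of 1770. Across the 77 core members, Spearman's rho between FPKM and gene_length was between -0.62 (KO 2) and -0.52 (WT 3), a description over genes that share their libraries. The mRNA length of the principal transcript in GENCODE M21 had a median of 851 bases, and with it rho was between -0.29 (WT 2) and -0.15 (KO 3). With the coding length, whose median is 456 bases, rho was between 0.014 (WT 2) and 0.25 (KO 3). The table's gene_length was a median of 2.02 times the mRNA length in the core members, up to 6.81 times in Rpl35a, against 1.34 times in 10280 other protein-coding genes tested.

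FPKM divides by gene_length, so a gene listed as long with a short mRNA gets a lower value than its mRNA length would give. Rpl35a is listed at 3526 bases with an mRNA of 518 bases and had an FPKM of 70.9 to 85.7 in the KO libraries. Rplp1 and Rpl36, at 499 and 383 bases, are listed at exactly their mRNA length. The 3 longest members, Rps15a (6270 bases), Rps24 (6256 bases) and Rps19 (4685 bases), had 102 to 178 FPKM in the KO libraries. The shortest of all 86 is Rps27rt at 374 bases.

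**Figure D2:**
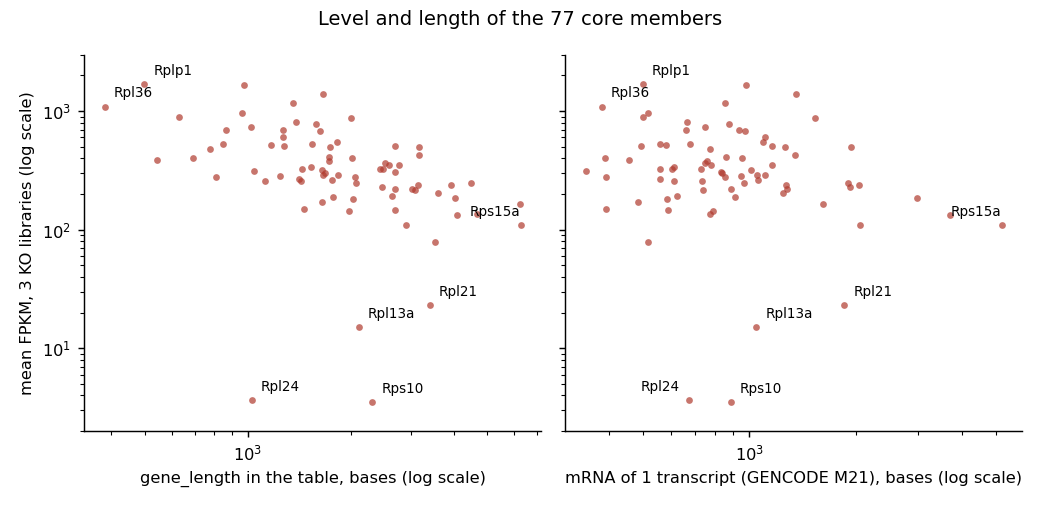
Mean FPKM in the 3 KO libraries against gene_length of the table (left) and against the mRNA length of 1 transcript (right) for the 77 core members, all axes log, with 1 point per gene. Levels fall with gene_length and less so with mRNA length, and Rpl24, Rps10, Rpl13a and Rpl21 lie below the rest.

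Nearly all members were higher in WT 2 than in the other libraries. The level of a core member in WT 2 was a median of 6.03 times the mean of WT 1 and WT 3, from 1.06 times (Rps10) to 18.0 times (Rpl21). On reads as a share of all reads of the library, which leaves out the authors' divisor, the median was 3.75 times, from 0.659 to 11.2 times. WT 2 was the highest of the 6 libraries for 76 of the 77 core members, which is 98.7%, against 30.2% of the 13393 genes tested. Rpl21, with 40.4, 767 and 44.7 in WT 1 to WT 3, Rpl29, with 162, 3364 and 214, and Rpl36, with 1063, 16503 and 1436, had the highest ratios among the core members on the log2 scale used. Rps10, Rpl36al and Rpl24 had the lowest, at 1.06, 1.24 and 1.28 times. The order of the core members was also less alike between WT 2 and the rest: Spearman's rho over the 77 was 0.991 between WT 1 and WT 3, at least 0.984 among the KO libraries and 0.793 to 0.864 between WT 2 and any other library.

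Other short genes were also higher in WT 2, and the core members had a higher median than other protein-coding genes in every bin of length. Over other protein-coding genes, the median log2 ratio of WT 2 to the other WT libraries was 1.69 for a gene_length under 500 bases (53 genes). It was 2.04 from 500 to under 1000 bases (262 genes) and 1.21 from 1000 to under 2000 (1148 genes). For longer genes it was 0.33 from 2000 to under 4000 (3188 genes) and -0.49 for 4000 or more (5653 genes). The core medians in the same bins were 3.37 (2 genes), 2.86 (9 genes), 2.68 (32 genes), 2.26 (28 genes) and 2.86 (6 genes). The bins match length and not level. From 500 to under 1000 bases, the median of mean FPKM was 1306 for core members and 25.7 for other genes. At 4000 bases or more it was 475 and 7.82. The part of level in the ratio was not tested. The core members' ratio changed little with gene_length (Spearman's rho -0.17, n = 77), while that of the other genes fell with it (-0.55, n = 10304). By mRNA length the medians of core members and other genes were 2.96 and 1.79 under 500 bases, 2.49 and 1.84 from 500 to under 1000 bases, 2.17 and 0.82 from 1000 to under 2000 bases and 2.67 and -0.065 from 2000 to under 4000 bases, where only 4 core members lie. Of the 3 lengths, the core members' ratio went most with the coding length (rho -0.51, n = 77). Genes of the mitochondrial ribosome, a separate machine with other proteins, had a median of 1.75 and were highest in WT 2 in 67 of 77.

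**Figure D3:**
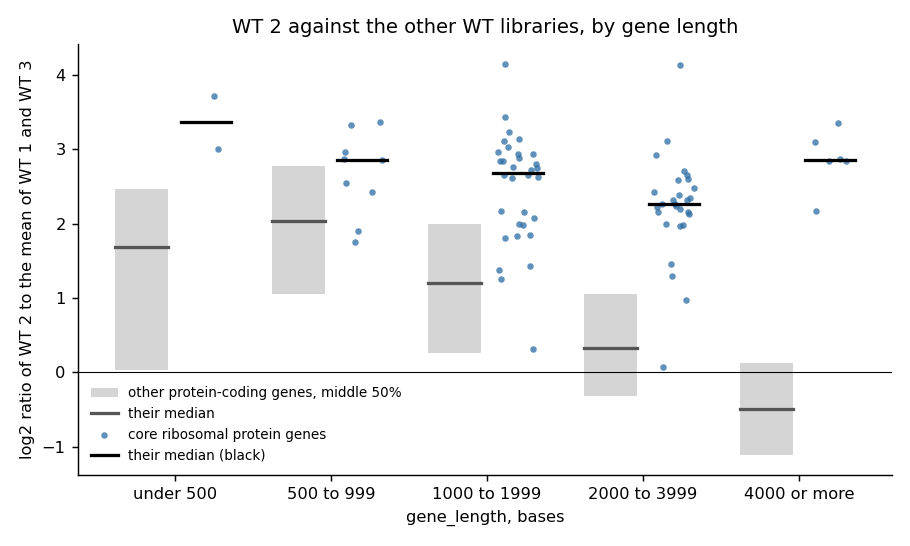
Log2 ratio of WT 2 to the mean of WT 1 and WT 3, on FPKM + 1, by bins of gene_length. Blue points are the 77 core ribosomal protein genes with their median in black, and grey boxes hold the middle 50% of other protein-coding genes with their median. The grey median is 1.69 under 500 bases and 2.04 in the bin from 500 bases, and then falls to -0.49 at 4000 bases or more. The core medians stay between 2.26 and 3.37.

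The comparison of KO with WT asks whether the ribosomal protein genes change with loss of Phf6. With all 6 libraries the levels were lower in KO for 81 of the 84 members tested, with a median log2 fold change of -1.19 over the core members, against 0.086 over all genes tested. Most of that size was lost when WT 2 was left out, and the test called few members. Of the 84, 1 rose (Rpl3l) and 1 fell (Rpl24) past an adjusted p of 0.05 (limma on log2(FPKM + 1), adjusted over 13393 genes), where 13.1% of all genes tested were called higher and 13.3% lower. At an unadjusted p under 0.05, 1 was higher and 3 were lower. Rpl24 had a log2 fold change of -0.91, SE 0.24 (limma, adjusted p = 0.0313), and rested on 102, 110 and 125 reads in WT 1 to WT 3 and 65, 57 and 66 reads in KO 1 to KO 3. Its call was lost when WT 1, WT 3 or any KO library was left out, with an adjusted p of at most 0.138. The 2 members not tested were Rpl39l, with 6 reads in WT 1 and none elsewhere, and Rpl10l, with no reads in any library.

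Counting libraries gives the order without the spread of WT 2. For 50 of the 84 members every KO library lay below every WT library, against 22.9% of all genes tested. For 1 member, Rpl3l, every KO library lay above every WT library, against 26.2% of all genes, and the groups overlapped for 33. By subunit, 22 of 31 small and 26 of 46 large subunit members were lower in every KO library. The divisors in the FPKM bear on this count, since they are larger for the KO libraries.

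Without WT 2, 27 members fell and 5 rose, where 25.3% of all genes were called lower and 26.8% higher, and the median over the core members was -0.39 against 0.040 over all genes. Every KO library lay below both WT 1 and WT 3 for 50 members (34.4% of all genes) and above both for 11 (37.7%). The 27 that fell were all core members, 12 of the small and 15 of the large subunit. Their log2 fold changes ran from -1.31 (Rps27) to -0.51 (Rps9), and they included Rps21 (-0.94), Rplp2 (-0.91), Rplp1 (-0.90), Rpl13 (-0.90) and Rpl5 (-0.79). Rpl3l (3.81), Rps27l (2.09), Rps19bp1 (0.73) and Rps26 (0.54) were among those that rose.

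How many members fell depended on how libraries were scaled. Without WT 2, scaling to the total of reads gave 9 higher and 12 lower, rescaling to TPM (a fixed sum per library) 14 higher and 5 lower, and quantile normalization 24 higher and 2 lower. The shares of all genes called under these scalings are not given here, so the counts show only how calls of members moved. The median over the core members was then -0.20, -0.045 and 0.16, while the median over all genes moved to 0.20, 0.37 and 0.13. Relative to all genes, the core median was -0.43 in the main scaling, -0.40 and -0.41 after the first 2 and 0.038 after quantile normalization. With all libraries, TPM gave 3 higher and 0 lower (4 and 4 at an unadjusted p under 0.05), and quantile normalization 6 higher and 1 lower. Both the size and the direction of the median over the core members therefore depend on the scaling, while differences among members, described next, need no library size.

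**Figure D4:**
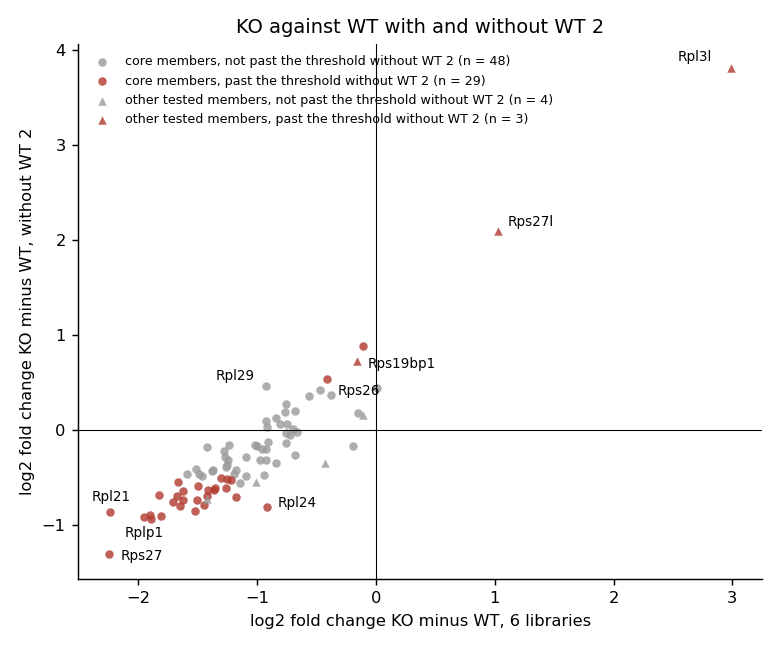
Log2 fold change KO minus WT of each tested member with all 6 libraries (horizontal) and without WT 2 (vertical), circles for core members and triangles for the others, red where the adjusted p without WT 2 was under 0.05. Most points move from about -1.19 to about -0.39, 27 of the red points lie below 0, and Rpl3l and Rps27l lie above the rest on both axes.

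To compare members with each other, the FPKM of each library were divided by the geometric mean of its 77 core members, which was 327, 1998 and 394 in WT 1 to WT 3 and 265, 305 and 291 in KO 1 to KO 3. A library's size or divisor then drops out. With all 6 libraries, 3 members rose against the mean core member, Rpl3l and Rps27l among them, and 2 fell, Rps27 and Rplp1, where 11.6% of all genes tested were called higher and 5.12% lower on the same scale. Without WT 2, 19 rose and 14 fell, where 34.8% and 17.3% of all genes were called.

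Rps27 and its paralogue Rps27l moved in opposite directions. Both encode a small zinc-binding protein of the 40S subunit with a coding length of 252 bases, and RPS27L is known as a direct target of p53. Rps27 (ENSMUSG00000090733, GRCm38 chromosome 3, 90212522 to 90213651, minus strand) was at 1.81, 2.67 and 2.52 times the mean core member in WT 1 to WT 3 and at 1.35, 1.10 and 0.844 times in KO 1 to KO 3. Every KO library was below every WT library. Against the mean core member this is a log2 fold change of -1.09, SE 0.26 (limma, adjusted p = 0.0262).

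Rps27l (ENSMUSG00000036781, chromosome 9, 66946086 to 66949516, plus strand) was at 0.077, 0.098 and 0.043 times the mean core member in WT 1 to WT 3 and at 0.239, 0.346 and 0.385 times in KO 1 to KO 3. Every KO library was above every WT library, and the log2 fold change was 2.18, SE 0.49 (limma, adjusted p = 0.0214). Its plain FPKM were 25.1, 195 and 16.8 in WT and 63.3, 105 and 112 in KO libraries, where WT 2 was the highest of all. Set directly against each other, there were 4.23, 3.66 and 1.69 FPKM of Rps27l per 100 of Rps27 in WT 1 to WT 3 and 17.7, 31.3 and 45.6 in KO 1 to KO 3. The means were 3.20 ± 1.33 and 31.6 ± 13.9 (SD, n = 3 each), a ratio of 9.88, and the groups did not overlap (exact permutation test, two-sided, p = 0.1, the smallest that 3 against 3 allows).

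Another gene of this family cannot be read firmly. Rps27rt, by its name a retrogene of Rps27, is listed at 374 bases with the same coding length of 252 bases, and had 663, 2099.7 and 373 FPKM in WT and 223, 316 and 386 in KO libraries. Per 100 FPKM of Rps27 it had 112, 39.4 and 37.7 in WT and 62.5, 93.9 and 157 in KO libraries. The groups overlapped, the log2 fold change was -1.42 (limma, adjusted p = 0.198), and reads of near-identical copies may be split between the 2 genes. Rps27 itself had 593, 5335 and 991 FPKM in WT and 357, 336 and 246 in KO libraries. Such a split would also bear on the level of Rps27 and on Rps27l per 100 of Rps27, and was not tested. The size of the ratios per 100 of Rps27 depends on listed lengths, since Rps27 is listed at 1043 bases with an mRNA of 345 bases. By reads, Rps27rt had 3829, 9232 and 2163 in WT and 1552, 1858 and 2326 in KO libraries. Rps27 had more reads in each library, at 9540, 65414 and 16013 in WT and 6928, 5518 and 4128 in KO libraries.

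Rps26, a small subunit protein that is changed in Diamond-Blackfan anemia, was at 1.00, 1.30 and 1.00 times the mean core member in WT 1 to WT 3 and at 1.77, 1.89 and 1.81 times in KO 1 to KO 3. The groups did not overlap, but the difference did not pass the threshold (log2 fold change 0.74, limma, adjusted p = 0.0503). It passed without WT 2 (0.86, limma, adjusted p = 0.00157).

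**Figure D5:**
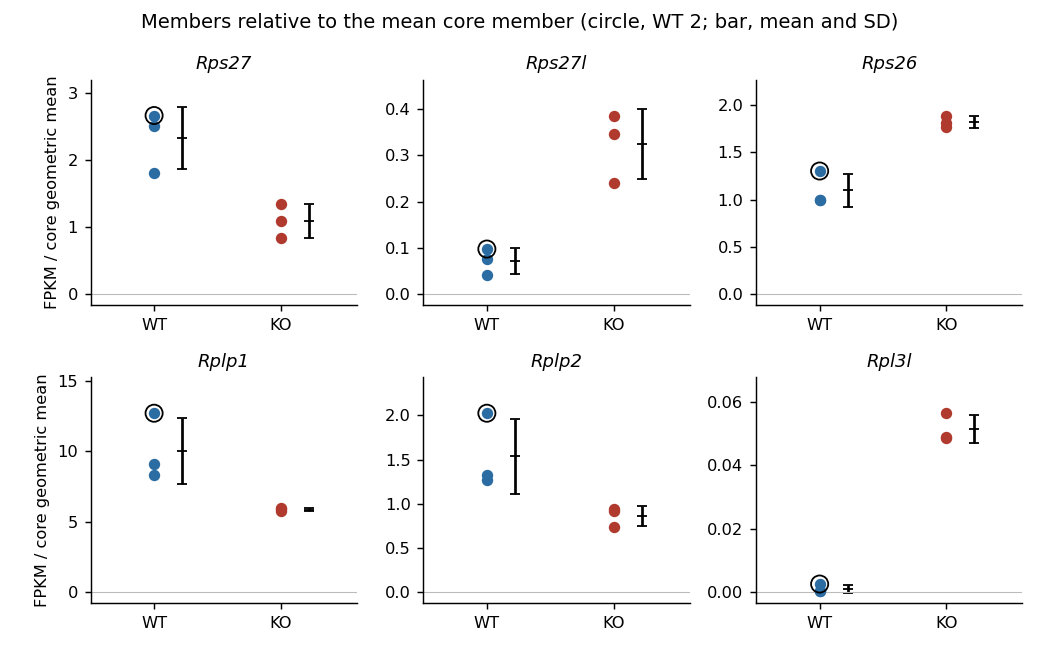
FPKM of 6 members divided by the geometric mean of the 77 core members of the same library, in 3 WT (blue, WT 2 circled) and 3 KO libraries (red), with the mean and SD beside them and a linear axis for each gene. The groups do not overlap for any of the 6: Rps27, Rplp1 and Rplp2 are lower in KO, and Rps27l, Rps26 and Rpl3l are higher. The 6 were chosen for display and do not stand for all members. Rplp0 and Rps27rt, of the same families, overlap between groups on this scale. The share of all genes without overlap is not given on this scale.

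Rpl3l had the largest log2 fold change of the tested members. It encodes a paralogue of Rpl3, a protein of the peptidyl transferase region, and is known as a form of skeletal muscle and heart. Rpl3l (ENSMUSG00000002500, chromosome 17, 24727820 to 24736143, plus strand) had 3, 99 and 3 reads in WT 1 to WT 3 and 457, 386 and 375 reads in KO 1 to KO 3, or 0.118, 5.13 and 0.118 FPKM against 14.9, 14.9 and 14.2. As a share of all reads, the KO libraries together had 142 times the level of WT 1 and WT 3 together (95% interval 64.9 to 387, exact, counting error only). The fit gave a log2 fold change of 2.99, SE 0.67 (limma, adjusted p = 0.0196), a value that depends on the pseudocount at so low a level. The call was lost when WT 1, WT 3 or any KO library was left out, with an adjusted p of at most 0.0758, while without WT 2 it was 3.81 (limma, adjusted p = 4.24e-05).

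Rpl3l stayed a small part of the Rpl3 pool. There were 0.032, 0.273 and 0.024 FPKM of Rpl3l per 100 of Rpl3 in WT 1 to WT 3 and 3.86, 3.42 and 3.03 in KO 1 to KO 3. Rpl3 itself had 366, 1880.5 and 493 in WT and 387, 437 and 468 in KO libraries, which overlap. Against the mean core member, Rpl3l was called with each of the 6 libraries left out in turn, with log2 fold changes of 4.17 to 4.72 and an adjusted p of at most 0.0156.

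The P stalk is formed by Rplp0, the base, and by copies of Rplp1 and Rplp2. Rplp1 was at 8.32, 12.7 and 9.10 times the mean core member in WT 1 to WT 3 and at 5.88, 5.74 and 5.95 times in KO 1 to KO 3, with no overlap (log2 fold change -0.75, SE 0.16, limma, adjusted p = 0.0179). Rplp2 was at 1.27, 2.02 and 1.32 times in WT and 0.946, 0.735 and 0.917 times in KO libraries, also with no overlap, and did not pass the threshold (-0.80, limma, adjusted p = 0.0794). Rplp0 was at 4.78, 3.09 and 4.96 times in WT and 5.36, 4.78 and 4.60 times in KO libraries, which overlap (0.23, limma, adjusted p = 0.403). Without WT 2, Rplp1 (-0.57, limma, adjusted p = 0.00398) and Rplp2 (-0.59, limma, adjusted p = 0.0194) fell against the mean core member and Rplp0 stayed at 0.010 (limma, adjusted p = 0.951).

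These calls rested on few libraries. Leaving out any KO library ended the calls of Rps27l, Rps27 and Rplp1 against the mean core member, and leaving out WT 3 ended those of Rps27l and Rps27. The adjusted p then reached 0.127, 0.131 and 0.0841, and the log2 fold changes stayed between 1.85 and 2.44 for Rps27l, -1.26 and -0.92 for Rps27 and -0.88 and -0.57 for Rplp1. Removing the trend of each library with gene_length left Rplp1 short of the threshold (adjusted p = 0.0646), and removing that with mRNA length did so for Rps27 (adjusted p = 0.0516).

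Without WT 2, 19 of the 84 tested members rose and 14 fell against the mean core member. Over all genes tested 34.8% were called higher and 17.3% lower, so calls were no more frequent among the members. The scale is centred on the core members, so a rise of some goes with a fall of others. Of the small subunit, Rps21 (-0.61), Rps24 (-0.43), Rpsa (-0.37) and Rps3 (-0.37) were among those that fell beside Rps27, and Rps26, Rps14 (0.36) and Rps3a1 (0.30) among those that rose. Of the large subunit, Rplp2, Rpl24 (-0.58), Rpl13 (-0.57), Rplp1, Rpl21 (-0.55), Rpl12 (-0.52), Rpl5 (-0.46) and Rpl23 (-0.38) fell, and 12 rose, led by Rpl29 (0.80), Rpl7 (0.77), Rpl30 (0.75) and Rpl37 (0.69). Among the 57 core members with a promoter window, the 32 with a run of at least 5 pyrimidines at the start had a median of -0.041 on this scale and the 25 without one -0.20. The 24 with CCGGAAG had a median of 0.14 and the 33 without it -0.19. These are descriptions over a few genes, with no test.

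The study followed p53, and 10 members are known to bind Mdm2, the ligase that turns p53 over. They are Rpl5, Rpl11, Rpl23, Rpl26, Rps3, Rps7, Rps14, Rps20, Rps27 and Rps27l. With all libraries 0 of the 10 rose or fell past the threshold, where 13.1% of all genes were called higher and 13.3% lower. At an unadjusted p under 0.05, 1 was lower, and voom on the recovered reads also called 0. For 7 of the 10 every KO library lay below every WT library (22.9% of all genes). Without WT 2, 4 fell and 1 rose, where 25.3% and 26.8% of all genes were called. The 4 were Rps27 (-1.31), Rpl5 (-0.79), Rpl23 (-0.70) and Rps3 (-0.69), and the one that rose was Rps27l (2.09). Rps20 had 166, 1567 and 199.6 FPKM in WT and 118, 139.7 and 141 in KO libraries, Rpl26 had 410.2, 2629 and 427 and 290.3, 366 and 321, and Rps7 had 447, 1979.8 and 556 and 379, 432 and 397. These 3 were lower in every KO library and were not called with or without WT 2. Rps14, with 729, 5751 and 871 in WT and 719, 837 and 897 in KO libraries, overlapped between the groups.

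Rpl5 and Rpl11, which act on Mdm2 together with the 5S RNA, are set side by side here, since the difference between them was not tested. Rpl5 had 379, 1619 and 449.9 FPKM in WT and 219, 249 and 249.6 in KO libraries, all KO libraries being below all WT libraries. Rpl11 had 262, 1781 and 326 in WT and 296, 313 and 305 in KO libraries, which lay between WT 1 and WT 3. With all libraries the log2 fold changes were -1.45 (limma, adjusted p = 0.146) and -0.81 (limma, adjusted p = 0.495), and without WT 2 they were -0.79 (limma, adjusted p = 0.0084) and 0.062 (limma, adjusted p = 0.757). Against the mean core member without WT 2, Rpl5 fell (-0.46, limma, adjusted p = 0.0184) and Rpl11 rose (0.39, limma, adjusted p = 0.0384).

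The other members known in T-ALL or T cell development are Rpl10, Rpl22 and Rpl22l1. Rpl10 had 413, 1998 and 438 FPKM in WT and 250.1, 266 and 323 in KO libraries, with no overlap, and the log2 fold change of -1.35 (adjusted p = 0.206, limma) was -0.61 without WT 2 (limma, adjusted p = 0.0263). Rpl22 had 114, 694 and 132 in WT and 97.9, 123 and 108 in KO libraries, where the groups overlapped (-0.997, limma, adjusted p = 0.356). Its paralogue Rpl22l1 had 36.4, 112 and 49.0 in WT and 23.9, 28.1 and 34.9 in KO libraries, all KO libraries being lower (-1.01, limma, adjusted p = 0.153, and -0.55 without WT 2, limma, adjusted p = 0.0726). There were 31.9, 16.1 and 37.2 FPKM of Rpl22l1 per 100 of Rpl22 in WT and 24.5, 22.8 and 32.3 in KO libraries, so the balance of the pair overlapped between groups.

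The remaining paralogues were low. Rpl7l1, which acts in the assembly of the large subunit, had 17.0, 28.6 and 14.9 FPKM in WT and 15.4, 20.1 and 18.5 in KO libraries, or 4.72, 3.12 and 3.901 per 100 of Rpl7 in WT and 3.34, 3.66 and 3.62 in KO libraries. These groups overlapped. Rpl36al had 2.73, 3.14 and 2.34 in WT and 1.71, 1.88 and 1.74 in KO libraries, with all KO libraries below (log2 fold change -0.42, limma, adjusted p = 0.185). Rps19bp1 had 9.81, 68.2 and 10.01 in WT and 12.9, 19.999 and 19.3 in KO libraries, and rose without WT 2 (log2 fold change -0.16 with it and 0.73 without it, limma, adjusted p = 0.8995 and 0.0301).

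Ribosomal proteins whose names fall outside the rule include Fau and Rack1. Fau, whose product is split into ubiquitin-like and S30 parts, had 815, 8701 and 948 FPKM in WT and 528, 549 and 516 in KO libraries, and without WT 2 it fell (-0.73, limma, adjusted p = 0.013). Rack1, a scaffold on the small subunit, had 282, 946 and 335 in WT and 227, 235 and 242 in KO libraries, all lower.

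Genes of related machinery were counted in the same way. Of 15 other 5'TOP mRNAs, such as the elongation factor gene Eef1a1 (3814, 4064 and 4682 FPKM in WT and 2897, 3093 and 3117 in KO libraries), 0 rose and 1 fell with all libraries (1 and 2 at an unadjusted p under 0.05, and 0 and 1 by voom), and 4 rose and 4 fell without WT 2. Of all genes tested, 13.1% were called higher and 13.3% lower with all libraries. Without WT 2 the shares of all genes were 26.8% and 25.3%, near those of these mRNAs. The median log2 fold change of the 15 was -0.26 with all libraries and -0.16 without WT 2. The one that fell with all libraries was Vim, the intermediate filament vimentin (294, 512 and 241 in WT and 67.3, 56.3 and 76.1 in KO libraries, log2 fold change -2.31, limma, adjusted p = 0.00616). Eef1g (-0.79), Tpt1 (-0.79), Eef1b2 (-0.44) and Vim (-1.99) fell without WT 2, and the initiation factor genes Eif3h (0.81), Eif3e (0.75) and Eif4b (0.58) and the histone chaperone gene Nap1l1 (0.81) rose.

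For the mitochondrial ribosome, 77 of 78 genes were tested. With all libraries 0 rose or fell (2 and 2 at an unadjusted p under 0.05, and 0 by voom). Of all genes tested, 13.1% were called higher and 13.3% lower in that fit. The median of the mitochondrial ribosomal genes was 0.024. Without WT 2, 45 rose and 3 fell (26.8% and 25.3% of all genes), with a median of 0.59 and every KO library above WT 1 and WT 3 for 62 genes (37.7% of all genes). Their median FPKM was 7.98, 29.6 and 7.95 in WT 1 to WT 3 and 11.3, 13.2 and 12.5 in KO 1 to KO 3, so the KO libraries lay above WT 1 and WT 3 and below WT 2.

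Of 13 genes that control ribosomal protein synthesis, 12 were tested and Mycn was too low. With all libraries 0 rose or fell (5 and 2 at an unadjusted p under 0.05, and 0 by voom), where 13.1% and 13.3% of all genes were called higher and lower. Without WT 2, 6 rose and 1 fell, where 26.8% and 25.3% of all genes were called. Myc, which drives ribosome production, had 30.4, 45.1 and 53.3 FPKM in WT and 64.8, 79.1 and 126 in KO libraries, all higher (log2 fold change 1.03, limma, adjusted p = 0.0838, and 1.08 without WT 2, limma, adjusted p = 0.0434). Gabpa (0.65), Yy1 (0.34), Rptor of the mTOR complex (0.67), the S6 kinase gene Rps6kb1 (0.48) and Tbp (0.51) also rose without WT 2, and the S6 kinase gene Rps6kb2 fell (-0.60). Larp1, which binds 5'TOP mRNAs, had 47.3, 20.99 and 53.5 in WT and 59.99, 44.0 and 58.5 in KO libraries, which overlap.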

How the data were processed

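Total RNA of BM cells (Trizol) was made into libraries with a NEBNext Ultra kit, and 150 base paired ends were read on a NovaSeq instrument in 3 WT and 3 KO libraries. The submitters' processing notes name HISAT2 2.0.5, featureCounts 1.5.0-p3 and the builds GRCm38 and mm10. The handling of strand, of reads on several genes and the annotation release are not given in the sources used here. The authors deposited FPKM per gene, fragments divided by gene length and by a library size, with a gene_length column, and used DESeq2 for their own comparison.

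FPKM times gene_length gave whole fragments for 100% of values (tolerance 0.01), here called reads. The 13393 genes that reached an FPKM of 1 in 3 or more libraries were tested. KO was compared with WT by limma 3.58.1 (R 4.3.3, intensity trend, two-sided) on log2(FPKM + 1), a scale that understates changes of low genes, adjusted by Benjamini-Hochberg over all genes tested, with a threshold of 0.05. Scripts were tested on simulated data. Lengths and overlaps came from GENCODE M21 (84 of 86 members with the same coordinates) and promoters from RefSeq. Tables were handled with pandas 2.3.3 and NumPy 2.4.6 in Python 3.11.15 and with data.table (version 1.17.8), exact tests were run in SciPy 1.17.1 and plots were drawn with Matplotlib 3.10.9.

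The genotype labels number the gene symbol upward from sample to sample, and Phf6 was read from the design text. Earlier results of these data were known when the members, the gene lists and the naming rule were chosen. Named are called members (the 5 with the largest rise and fall), the P stalk, Mdm2-binding and T-ALL genes, paralogues, and the 3 highest and lowest by level, length and WT 2 ratio. Other genes were named after their values were seen, and a few genes are not reported here by name. Same-numbered libraries did not deviate together (correlations 0.095, 0.10 and -0.15), so no pairing was used. Alternatives were pseudocounts, filters, scalings, length trends, array weights, voom, a replicate block and leaving out each library. A count of 0 reads allows up to 3 reads per library, and intervals cover counting error only.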

Additional observations from a re-analysis of the deposited data

How the results depend on the processing

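WT 2, the scaling and the small number of libraries limit these results. The counts of members higher and lower with all libraries (1 and 1) became 3 and 0 after rescaling to TPM, 6 and 1 after quantile normalization, 1 and 0 after scaling to total reads, with voom and with a replicate block (2 to 11 lower at an unadjusted p under 0.05), 2 and 22 after removing the trend with mRNA length and 6 and 18 with array weights. Without each library in turn they ranged from 0 to 5 and from 0 to 27, and only the fit without WT 2 gave more than 0 (at an unadjusted p under 0.05 the fits without another library gave 1 higher and 1 to 14 lower). The median over the core members was 0.014 after quantile normalization and -1.64 to -0.39 without each library. Without WT 2, the counts were 9 and 12 for total reads, 14 and 5 for TPM, 24 and 2 for quantile normalization, 3 and 41 with the gene_length trend and 3 and 46 with the mRNA length trend removed, and the median was -0.20, -0.045, 0.16 (reversed) and, for mRNA length, -0.58. Calls against the mean core member (5) were 11 with the mRNA length trend removed and 1 to 33 without each library. For most of these fits the share of all genes called is not given. The counts show only how calls of members moved. The difference in small subunit reads per large subunit read was 0.018 by summed FPKM, -0.012 by median FPKM, -0.10 without the P stalk and -0.098 from 1000 bases of gene_length. The cause was not tested. The replicate block also ended the call of Rpl24 (adjusted p = 0.105) and gave 6 calls against the mean core member, with Rpl7 among them.

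Direction reversed under quantile normalization for Rpl11 (0.41), Rpl23 (0.01), Rpl26 (0.062), Rpl7l1 (0.088), Rplp0 (0.42), Rps14 (0.46), Rps19bp1 (0.16) and Rps7 (0.36), under TPM for Rpl11 (0.033), Rpl36al (0.18), Rpl7l1 (0.71) and Rps19bp1 (0.68), with array weights for Rpl11 (0.16), Rpl7l1 (0.13), Rps14 (0.12) and Rps19bp1 (0.78), for total reads for Rpl7l1 (0.29) and Rps19bp1 (0.24), for the mRNA length trend for Rps19bp1 (0.17), without WT 2 for Rpl11 (0.062), Rpl7l1 (0.16), Rps14 (0.030) and Rps19bp1 (0.73), and without KO 1 for Rps19bp1 (0.03). Without each library these 4 ranged from -1.32 to 0.062, -0.29 to 0.16, -1.46 to 0.030 and -0.61 to 0.73. Rpl24 was also lost without WT 1, WT 3 or any KO library (adjusted p = 0.0501 to 0.138) and with voom, total reads, the mRNA length trend removed or TPM (adjusted p = 0.0706, 0.150, 0.432 and 0.693). Rpl3l kept its direction in all 20 alternatives run. The mRNA length trend, total reads, the scalings without WT 2 and the small and large subunit measures were chosen after seeing the data.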

Other observations

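The balance of the subunits was looked at after the values of single members were known. The small subunit members had 0.812, 0.815 and 0.805 reads per read of the large subunit in WT 1 to WT 3 and 0.749, 0.745 and 0.743 in KO 1 to KO 3. WT 2, which stood apart in level, lay with the other WT libraries here, and the groups did not overlap. The means were 0.810 ± 0.00522 and 0.746 ± 0.00332 (SD, n = 3 each, exact permutation test, two-sided, p = 0.1, the smallest that 3 against 3 allows). By summed FPKM the ratios were 0.741, 0.640 and 0.723 in WT and 0.724, 0.715 and 0.718 in KO libraries, which overlap, so the separation depends on counting reads.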
